A study of Mus musculus with 12 samples.

Results

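Pyramidal neurons of the hippocampal fields CA1 and CA2 were followed through 6 marker genes in 12 libraries. They were taken by symbol from the 52634 genes of the count table: Fibcd1, Wfs1 and Pou3f1 for CA1, and Amigo2, Rgs14 and Pcp4 for CA2. CA1 pyramidal neurons give the main output of the hippocampus proper and are driven by CA3 through the Schaffer collaterals. CA2 is the small field between CA3 and CA1. It is known in rodents for resistance to long-term potentiation at its Schaffer collateral synapses and for a role in social memory.

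RNA sequencing was done on dorsal hippocampus of mice at postnatal day 7. In SERTPyramid mice the serotonin transporter gene Slc6a4 is conditionally deleted in pyramidal neurons; what drives the deletion is not stated in the labels. Control mice were SERTfl/fl, with loxP-flanked Slc6a4. These are the genotype labels; the sample titles write SERTPyramid∆ and SERTfl/fll. Each library came from tissue pooled from 4 mice, and there were 3 SERTPyramid and 3 control libraries labelled female and 3 SERTPyramid and 3 control libraries labelled male. Nothing says whether pools shared litters, and p-values therefore cover only the spread among the 12 pools.

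Library totals were 18747249 to 25522347 counts. Slc6a4 had 1 to 12 counts in SERTPyramid libraries and 0 to 17 in control libraries, where the library at 0 allows up to 0.160 CPM (counts scaled to the library total), so its loss was not detectable at this depth. In 10 of the 12 libraries, sex-chromosome transcripts (Xist and Y-linked genes) went against the labelled sex. The exceptions were control replicate 1 labelled female and control replicate 1 labelled male. Female and male therefore name labels below. For the tissue label, genes enriched in CA1, CA3 and dentate granule neurons were detected in every library, with sums of 603 to 679, 699 to 769 and 505 to 628 CPM. Which cells the marker reads came from cannot be read from bulk tissue.

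None of the 6 genes passed a test of the difference between SERTPyramid and control libraries. The largest of the 6 differences averaged over both labelled sexes was the CA2 marker Pcp4, 0.939-fold in SERTPyramid relative to control, with a 95% interval of 0.866 to 1.02. The intervals of the other 5 genes lay between 0.918-fold and 1.17-fold. No gene of the 17631 tested passed an adjusted p of 0.05 (0% called in each of the 4 comparisons), so the count of 0 of 6 markers is that of all genes. At an unadjusted p under 0.05, edgeR's quasi-likelihood test took 8.04% of genes among labelled females, 3.16% among labelled males, 6.49% in the mean of both and 4.45% in the interaction of genotype and labelled sex. It took 0 of the 6 markers in each. DESeq2 called 1 gene among labelled females and 1 in the interaction. An edgeR fit of the female libraries alone called 415 of 17108 genes tested. None of the 6 markers was among them, and at such shares 0 of 6 does not set them apart from all genes.

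The CA1 markers come first. Fibcd1 (ENSMUSG00000026841, chromosome 2, 31813290 to 31846005, minus strand, GRCm38) encodes a membrane receptor that binds acetylated structures such as chitin. It had 101, 97.1 and 103 CPM in SERTPyramid libraries labelled female, against 112, 100.3 and 90.3 CPM in control libraries labelled female. Among libraries labelled male it had 117, 102 and 96.4 CPM in SERTPyramid and 105, 96.8 and 98.8 CPM in control. All 3 SERTPyramid females lay inside the range of the control females, and the male groups overlapped. Its log2 fold change was -0.02 ± 0.08 (SE, n = 3 libraries a group) in females and 0.06 ± 0.08 in males, with adjusted p = 0.972 and 0.999 by edgeR.

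Wfs1 (ENSMUSG00000039474, chromosome 5, 36966104 to 36989205, minus strand) encodes wolframin, a membrane protein of the endoplasmic reticulum whose loss causes Wolfram syndrome in humans. SERTPyramid libraries labelled female had 107, 103 and 115 CPM, against 124, 103 and 103 CPM in control libraries labelled female. In males the values were 122, 104 and 101 CPM in SERTPyramid and 102, 103 and 102 CPM in control. The male controls were within 2 CPM of each other, while 1 SERTPyramid male and 1 control female stood well above the rest. The log2 fold change was -0.04 ± 0.08 (SE) in females and 0.08 ± 0.08 in males, with adjusted p = 0.933 and 0.999 by edgeR.

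Pou3f1 (ENSMUSG00000090125, chromosome 4, 124656807 to 124660655, plus strand, 1 exon) encodes a POU-domain transcription factor, also known for its part in Schwann cell myelination. It had 203, 220 and 245 CPM in SERTPyramid females, against 215, 231 and 222 CPM in control females. In males it had 221, 254 and 275 CPM in SERTPyramid, against 244, 204 and 223 CPM in control. Both of the highest of the 12 values belonged to SERTPyramid males, but the lowest SERTPyramid male lay below 2 of the 3 male controls. Its log2 fold change was -0.02 ± 0.09 (SE) in females and 0.15 ± 0.09 in males, where the 95% interval ran from -0.04 to 0.34 and the adjusted p by edgeR was 0.999.

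The CA2 markers were counted less deeply, with 281 to 498 counts a library, against 1904 to 6379 for the CA1 markers. Amigo2 (ENSMUSG00000048218, chromosome 15, 97244125 to 97247287, minus strand) encodes an adhesion protein with leucine-rich repeats. SERTPyramid females had 15.7, 14.6 and 14.6 CPM, against 17.4, 16.0 and 13.9 CPM in control females, so that the SERTPyramid values sat inside the control range. In males it had 17.3, 14.4 and 15.6 CPM in SERTPyramid and 14.99, 14.4 and 13.2 CPM in control. The male groups overlapped because the lowest SERTPyramid library lay below the highest control. The log2 fold change was -0.09 ± 0.09 (SE) in females and 0.14 ± 0.09 in males. The difference between those was -0.23 ± 0.13 (SE, 95% interval -0.50 to 0.04), with an adjusted p of 0.999 by edgeR. Leaving out each library in turn, it ran from -0.31 to -0.15, with -0.15 without control replicate 1 labelled female.

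Rgs14 (ENSMUSG00000052087, chromosome 13, 55369732 to 55384687, plus strand) encodes a regulator of G protein signaling that limits synaptic potentiation in mouse CA2 neurons. It had 15.7, 19.1 and 21.1 CPM in SERTPyramid females, against 19.8, 16.3 and 19.0 CPM in control females. In males it had 19.9, 14.7 and 16.6 CPM in SERTPyramid, against 15.5, 16.2 and 15.8 CPM in control. In both labelled sexes the SERTPyramid values reached both above and below those of the controls. The log2 fold change was 0.00 ± 0.11 (SE) in females and 0.10 ± 0.12 in males, with adjusted p = 0.996 and 0.999 by edgeR.

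Pcp4 (ENSMUSG00000090223, chromosome 16, 96467606 to 96525793, plus strand) encodes a small calmodulin-binding protein. SERTPyramid females had 16.4, 15.7 and 14.98 CPM, against 18.5, 16.2 and 16.5 CPM in control females. In males the values were 18.2, 16.3 and 15.8 CPM in SERTPyramid and 16.7, 17.2 and 17.6 CPM in control. The female groups touched at a single library, and in males 1 SERTPyramid library was above every control while the other 2 were below. In females it stood at -0.13 ± 0.08 (SE) on the log2 scale relative to control, with an adjusted p of 0.711 by edgeR, and in males at -0.05 ± 0.08. Leaving out each library in turn, the female value ran from -0.17 to -0.069, with -0.069 without control replicate 1 labelled female. The mean of both was -0.09 ± 0.06 (SE, 95% interval -0.21 to 0.02), with an adjusted p of 0.768 by edgeR, and -0.058 without that library.

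**Figure D1:**
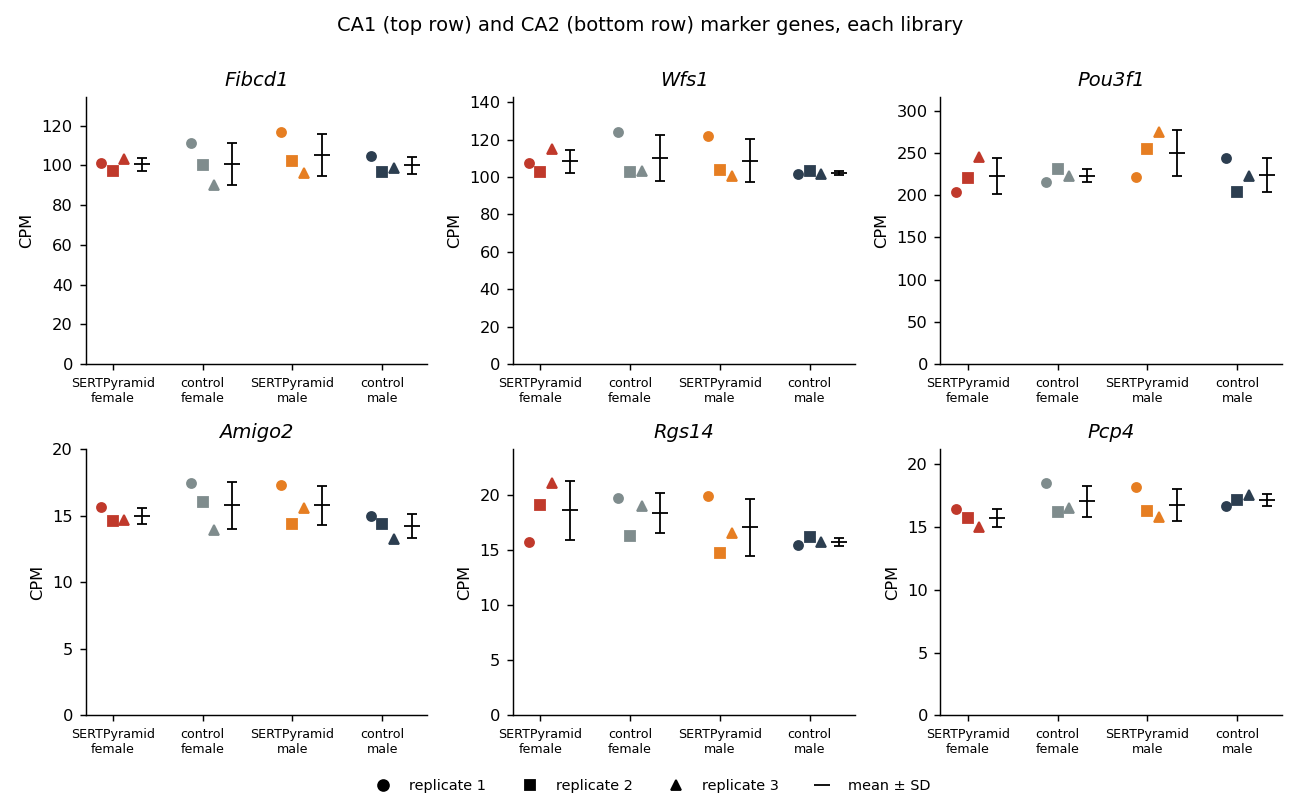
Level of each marker in CPM (y axes, from 0) in the 12 libraries, by genotype and labelled sex; symbols are replicates and bars the mean ± SD of 3 libraries. In every panel the SERTPyramid and control libraries of a labelled sex overlap.

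In CPM on library totals, 0 of 6 markers had groups that did not overlap among labelled females, against 18.8% of all tested genes. Among labelled males the count was 0 of 6 against 6.75%, and with 6 against 6 libraries 0 of 6 against 0.261%. Scaling by TMM instead separated the female groups for Pcp4 alone, where 18.9% of all tested genes were separated. A 2-sided exact permutation test took the difference in mean CPM on library totals. It was run 18 times, for each gene in each labelled sex and over both with genotype permuted within labelled sex. Its p ran from 0.16 to 1, and the lowest p adjusted over the 18 tests was 0.90. With 3 against 3 libraries it cannot give less than 0.10, and the stratified test can reach 0.005. Pcp4 over both labelled sexes had p = 0.16 in that exact test, with 16.2 ± 1.07 CPM in SERTPyramid and 17.1 ± 0.836 CPM in control libraries (SD, n = 6 each). On CPM scaled by TMM, the same exact test gave Pcp4 p = 0.10 in females and 0.09 over both. Adjusted over the 18 tests on that scale, each was 0.90.

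The intervals give the sizes of difference that these libraries do not resolve. Among labelled females, the 95% intervals of the 6 genes together spanned 0.813-fold (Pcp4) to 1.19-fold (Rgs14) in SERTPyramid relative to control. Among labelled males they spanned 0.863-fold (Pcp4) to 1.27-fold (Rgs14). In bulk tissue a change in the number of CA1 or CA2 neurons and a change in RNA per neuron cannot be told apart, and opposite changes of both would leave these values in place.

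**Figure D2:**
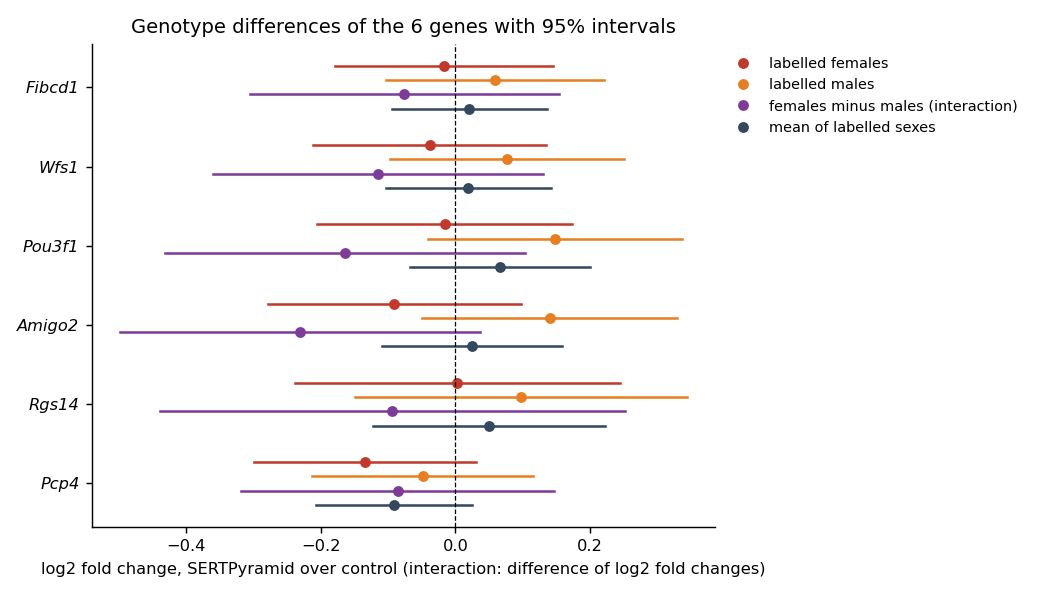
Log2 fold change of SERTPyramid over control for the 6 markers (x axis), with points for labelled females, labelled males, the difference between those and their mean, and lines for 95% intervals. All 24 intervals include 0.

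Per kb of exon, each CA1 marker was higher than each CA2 marker in every library. In CPM per kb of exon, Pou3f1 averaged 59.7 ± 5.49, Wfs1 28.4 ± 2.17, Fibcd1 21.4 ± 1.49, Pcp4 16.2 ± 0.996, Amigo2 4.80 ± 0.403 and Rgs14 4.12 ± 0.505 (SD, n = 12). Each gene was above its next lower neighbour in 12 of 12 libraries, except that Amigo2 exceeded Rgs14 in 10 of 12 and their ranges overlapped. Pou3f1 lay above 96.3% of tested genes on this scale and Rgs14 above 51.4%.

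The length chosen decides part of that order. Rgs14 and Pcp4 have 4239 and 1026 bases of exon over all their transcripts, against 2356 and 641 bases in the longest coding transcript. Per kb of that transcript, Pcp4 averaged 26.0 ± 1.59 and exceeded Fibcd1 in 12 of 12 libraries, and Rgs14 averaged 7.42 ± 0.908 and exceeded Amigo2, at 5.06 ± 0.426, in 12 of 12 (SD, n = 12). Pou3f1, Wfs1 and Fibcd1 have the same length by both measures. The statement that CA1 markers were higher than every CA2 marker therefore holds per kb of exon and fails for Pcp4 per kb of transcript.

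The fields were also compared by their sums. The summed level of the CA1 markers over that of the CA2 markers, in CPM per kb of exon, was 4.16 to 4.78 in SERTPyramid females and 3.99 to 4.39 in control females. It was 4.10 to 4.87 in SERTPyramid males and 4.01 to 4.56 in control males. The groups overlapped in both labelled sexes.

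**Figure D3:**
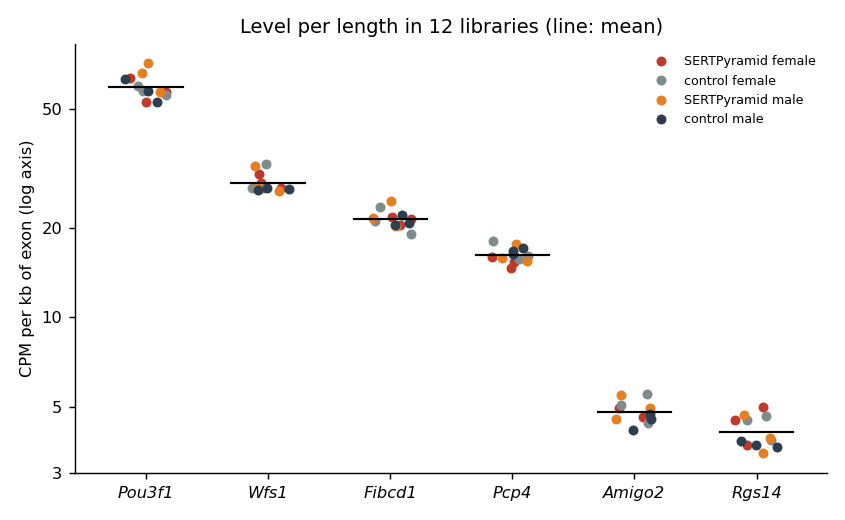
Level per length (CPM per kb of exon, log axis) of the 6 markers in each of 12 libraries, with lines at the mean. Pou3f1 is highest, at 59.7 on average, and Amigo2 and Rgs14 overlap near 4.80 and 4.12.

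Among libraries of the same group, 4 of the markers varied more than most genes of like level. The within-group SD of log2 CPM was 0.114 for Fibcd1, 0.119 for Wfs1 and 0.128 for Pou3f1, where genes of nearby level had a median of 0.0634, 0.0628 and 0.0639. For Rgs14 it was 0.171 against a median of 0.0983. Amigo2, at 0.112 against 0.104, lay above 57.8% of such genes, and Pcp4, at 0.0821 against 0.10, above 26.7%.

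A pair of libraries stood out across the markers. SERTPyramid replicate 1 labelled male and control replicate 1 labelled female held the 2 highest values of Fibcd1, Wfs1, Amigo2 and Pcp4, and 2 of the 3 highest of Rgs14. Pou3f1 did not follow them. These are 1 library of each genotype, so the pattern runs across the genotypes. Both were high in Xist, with 21713 counts in the SERTPyramid library, against its male label, and 20646 in the control library, as its female label says. Their Y-linked counts were 5 and 1. Xist was also high outside the pair, as in control replicate 2 labelled male with 22750 counts. The part of sex in the pattern was not tested. The same pair was highest in the summed level of 10 general excitatory neuron genes, with 5581 CPM in the SERTPyramid library and 5643 CPM in the control library, where the other 10 libraries had 4561 to 5020 CPM. Camk2a, the calcium and calmodulin kinase of excitatory synapses, had 2680 CPM in that SERTPyramid library and 2629 CPM in that control library, against at most 2336 CPM elsewhere. Camk2a and Slc17a7 made up most of the excitatory sum, with 2288 and 1184 CPM on average over the 12 libraries. The sum therefore does not show that all 10 genes were higher in this pair. In the sum of 8 other CA1 genes the SERTPyramid library, at 609 CPM, ranked 11th of 12 and the control library, at 610 CPM, 10th. In that of other CA2 genes the SERTPyramid library ranked 7th and the control library 9th. The largest member was Mpped1 in the CA1 sum, at 301 CPM on average, and Ptpn5 in the CA2 sum, at 221 CPM. The part of these library differences in the markers' spread was not tested.

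Over the 12 libraries, Fibcd1 and Wfs1 were the most closely related pair. Pearson's r of their log2 CPM was 0.81 (permutation p = 0.00143, adjusted over 15 pairs 0.0214) and Spearman's rho was 0.62 (permutation p = 0.0346, adjusted 0.367). Without the 2 libraries farthest from the median of Fibcd1, a removal that by itself can lower r, r was 0.47. It was 0.93 within SERTPyramid and 0.69 within control libraries, 0.87 within labelled females and 0.89 within labelled males, and 0.84 without the first control library of each labelled sex. Fibcd1 with Amigo2 had r = 0.72 (rho 0.59, permutation p = 0.00865, adjusted 0.0592), and 0.25 without the 2 farthest libraries. Pou3f1 had r of -0.43 to -0.05 against each of the other 5 markers. Of the 15 pairs, only Fibcd1 with Wfs1 passed the adjusted threshold on the values as measured.

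On deviations from the mean of each group, 7 of the 15 pairs passed. Fibcd1 with Wfs1 had r = 0.88 (adjusted permutation p = 0.00345), Fibcd1 with Amigo2 0.80 (adjusted permutation p = 0.0186) and Wfs1 with Pcp4 0.77 (adjusted permutation p = 0.0217). Pou3f1 with Pcp4 had r = -0.73 (adjusted permutation p = 0.0268). Fibcd1 with Pcp4 was at 0.69, and Wfs1 with Amigo2 and with Rgs14 each at 0.65. That permutation treats the 12 deviations as independent although 4 group means were taken out of them, which makes its p too small.

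Genes whose level followed each marker most closely were ranked by Pearson's r of log2 CPM over the 12 libraries, among 12799 genes. Nearest to Wfs1 were Nsf, the ATPase of vesicle fusion, at r = 0.94, Camk2a at 0.93 and the orphan receptor gene Gpr158 at 0.93. Fibcd1 was followed by the matricellular gene Ccn1 at 0.92, Spsb1 at 0.88 and Gpr37 at 0.85, and Wfs1 was its 16th. Pou3f1 was nearest to Inafm1 and Abhd17a, each at 0.95, and Sh3bp1 at 0.95. For Amigo2 the nearest were the plakophilin gene Pkp2 at 0.90, the myelin gene Mag at 0.86 and the adenylate kinase gene Ak5 at 0.85. Rgs14 had Ppp1ccb at 0.87, whose reads are uncertain because it is nearly identical to its parent gene Ppp1cc, Dnajc12 at 0.85 and Itsn2 at 0.84. Pcp4 had the ubiquitin ligase gene Nedd4l at 0.93, Tbc1d8b at 0.93 and Ddi2 at 0.92. The points share libraries, depth and base composition, and the values are descriptions.

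Among the markers, Pou3f1 was the richest in G and C and Pcp4 the poorest. The longest coding transcript of Pou3f1 is 63.9% G and C, above 99.3% of 13683 genes, and that of Pcp4 is 47.1%, above 33.5% of them. Fibcd1 stands at 59.4%, Wfs1 at 57.8% and Rgs14 at 57.6%. Amigo2, at 48.1% and above 38.9% of genes, is close to Pcp4. The first 120 coding bases show the contrast, with CG dinucleotides in capitals (GENCODE M21 transcripts). Pou3f1 has 20 of them and is 80.0% G and C there, and Pcp4 has 5 and is 46.7%.
Pou3f1: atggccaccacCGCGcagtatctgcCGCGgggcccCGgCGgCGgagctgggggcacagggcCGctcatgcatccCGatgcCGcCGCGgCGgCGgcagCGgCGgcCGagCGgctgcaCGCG
Pcp4: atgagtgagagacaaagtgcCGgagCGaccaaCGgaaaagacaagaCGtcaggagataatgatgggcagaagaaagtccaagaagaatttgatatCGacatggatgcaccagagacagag

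Libraries differed in how they represented such genes. A balance was taken for each library as the median log2 deviation of the 1369 genes richest in G and C minus that of the 1369 poorest. The richest begin at 58.3%, which takes in Pou3f1 and Fibcd1. The poorest end at 41.9%, so neither Pcp4 nor Amigo2 is among them. The balance was -0.01, 0.08 and 0.09 in SERTPyramid females and -0.10, -0.04 and -0.10 in control females, with no overlap. It was -0.05, 0.04 and 0.09 in SERTPyramid males and 0.10, -0.07 and -0.03 in control males, which overlapped.

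Pou3f1 went up with this balance and Pcp4 went down, though neither passed an adjusted p of 0.05. For Pou3f1, r was 0.63 over 12 libraries (rho 0.61, permutation p = 0.0298, adjusted over 6 genes 0.0894), 0.29 within labelled females and 0.90 within labelled males. It was 0.47 without the 2 libraries of most extreme balance. For Pcp4, r was -0.71 (rho -0.66, permutation p = 0.0108, adjusted 0.0646), -0.84 within labelled females and -0.81 within labelled males, and -0.75 without the 2 extreme libraries. Over the 12 libraries r was -0.11 for Fibcd1, -0.39 for Wfs1 and -0.19 for Rgs14, which are also rich in G and C. It was -0.25 for Amigo2, which is close to Pcp4 in composition. Thus not all markers rich in G and C went up with the balance.

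With each library's trend against G and C content removed, an analysis added after the data were seen, the Pou3f1 difference in males was 0.10 ± 0.05 (SE) on the log2 scale, against 0.15 ± 0.09 with the trend left in. In females it was -0.07 ± 0.05, against -0.02 ± 0.09. Averaged over both labelled sexes it was 0.01 ± 0.04, against 0.07 ± 0.06. The Pcp4 mean difference was -0.08 ± 0.05, close to the -0.09 ± 0.06 with the trend left in. No gene passed an adjusted p of 0.05 by edgeR in this setting either, with 1046 genes in females and 591 in males at an unadjusted p under 0.05.

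**Figure D4:**
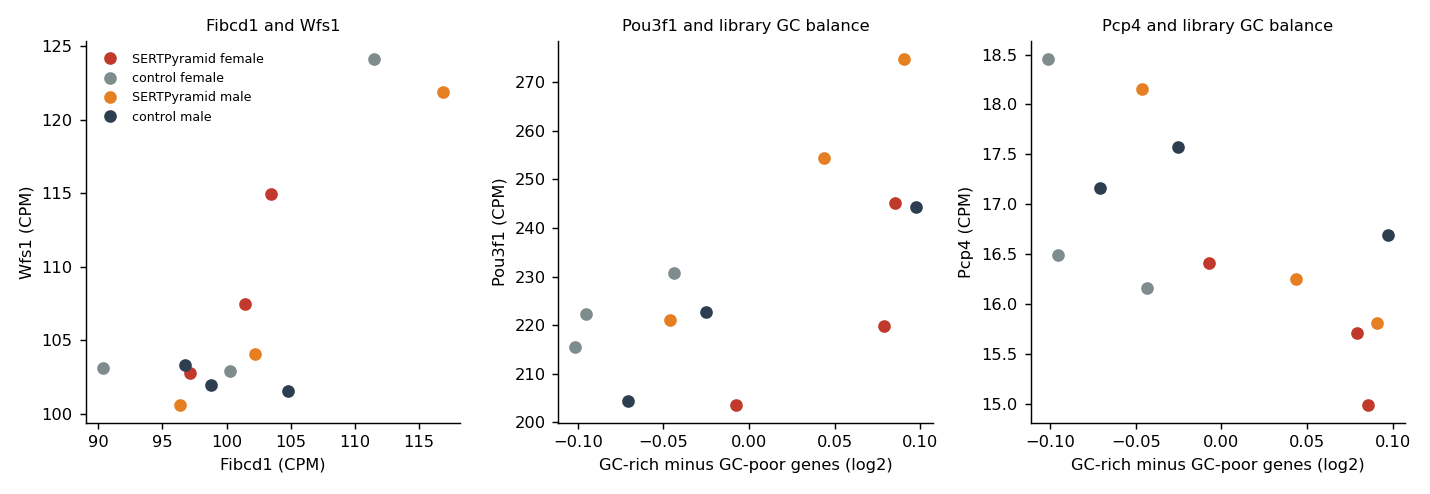
Left, Wfs1 against Fibcd1 (CPM) in 12 libraries, r = 0.81, with SERTPyramid replicate 1 labelled male and control replicate 1 labelled female at the upper right. Centre and right, Pou3f1 and Pcp4 (CPM) against each library's balance of genes rich and poor in G and C (log2), r = 0.63 and -0.71.

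Promoter sequence was at hand for 4 of the 6 genes (RefSeq, GRCm38.p6, 250 bases before to 50 after the start). The Amigo2 window was 83.3% G and C, above 99.7% of 32851 promoters, with 46 CG dinucleotides. That of Fibcd1 was 74.3% with 46, that of Wfs1 70% with 30, and that of Pcp4 48.7% with 6, above 43.6% of promoters in CG count. The part of promoter sequence in the marker levels was not tested. The 100 bases before the start are shown for the 3 genes where that stretch holds no annotated exon. They are chr2:31846006-31846105, minus strand, for Fibcd1, chr15:97247288-97247387, minus strand, for Amigo2 and chr16:96467506-96467605, plus strand, for Pcp4, with CG dinucleotides in capitals.
Fibcd1: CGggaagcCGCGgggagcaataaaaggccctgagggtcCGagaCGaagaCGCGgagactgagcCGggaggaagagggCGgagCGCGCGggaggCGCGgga
Amigo2: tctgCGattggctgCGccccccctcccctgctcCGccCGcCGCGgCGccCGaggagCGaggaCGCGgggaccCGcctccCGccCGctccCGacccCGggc
Pcp4: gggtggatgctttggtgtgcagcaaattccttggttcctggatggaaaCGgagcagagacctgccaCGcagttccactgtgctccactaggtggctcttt

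The octamer ATGCAAAT, a motif that POU factors bind, was searched on both strands. It was in 0 of the 4 windows and in 1.74% of all 32851 promoters, which says only that these letters are not in these stretches. TATAAA was in 0 of the 4 on either strand, against 13.6% of all promoters.

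Some counts share exons with neighbours, and the library kit does not mark strand. Pou3f1 overlaps the antisense gene Gm2164 over 330 bases (8.57% of its exon length), and Gm2164 had 237 counts in all 12 libraries together. Amigo2 overlaps Pced1b on the other strand over 58 bases (1.83%), and Pced1b had 1194 counts. Pcp4 shares 243 bases (23.7%) with an Igsf5 gene model on its own strand that is not among the genes of the count table. How the counting treated reads there is not given, so these 3 levels carry that uncertainty.

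The wider CA1 list gave no called gene either. Of 8 further CA1 genes tested, 0 passed an adjusted p of 0.05 in any comparison. Their median log2 fold change was -0.04 in females and -0.04 in males, against a median of 0.00 over all genes in both, and in the mean of both 1 of 8 was above 0, against 49.3% of all genes. The heparan sulfate enzyme gene Ndst4 was at -0.21 ± 0.08 (SE) in females, with an adjusted p of 0.568 by edgeR, and at 0.03 ± 0.09 in males. It was the only one of the 8 genes under 0.05 before adjustment in females. In the mean of both labelled sexes the transcription factor gene Etv1, which is also on the neocortical layer list below, was at -0.06 ± 0.05, the ciliary receptor gene Gpr161 at -0.04 ± 0.04 and Mpped1 at -0.04 ± 0.05.

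Of 10 further CA2 genes, 9 passed the filter on low counts and 0 passed the adjusted threshold; the vasopressin receptor gene Avpr1b, at 0.197 CPM on average, did not pass the filter. The median log2 fold change was -0.01 in females and 0.03 in males. Neurotrophin-3 (Ntf3) had a mean log2 fold change of 0.11 ± 0.09 (SE), the serine protease gene Prss23 -0.12 ± 0.12, the kinase gene Map3k15 0.15 ± 0.17 and the matrix gene Vit -0.07 ± 0.09.

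Among 10 CA3-enriched genes the medians were 0.01 in females and 0.02 in males, and 0 passed the adjusted threshold. The cadherin gene Cdh24 was at 0.33 ± 0.09 (SE, adjusted p = 0.530 by edgeR) in females and 0.00 ± 0.09 in males. The proteoglycan gene Spock1 was at -0.16 ± 0.06 in females and -0.08 ± 0.06 in males, and its mean of -0.12 ± 0.04 had an adjusted p of 0.756 by edgeR. The pentraxin gene Nptx1 and the BCL2-family gene Bok had means of -0.06 ± 0.05 and 0.03 ± 0.04.

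The median of 10 dentate granule neuron genes was -0.17 in females, with 1 of 10 above 0 where 49.9% of all genes were, and 0.14 in males, with 9 of 10 above 0 where 50.5% were. The interaction was below 0 for 10 of 10, where 51.0% of all genes were above 0, and 0 of 10 passed the adjusted threshold. Prox1, the transcription factor of granule neuron identity, was at -0.25 ± 0.08 (SE, adjusted p = 0.530 by edgeR) in females and 0.03 ± 0.08 in males. In the mean of both labelled sexes Stxbp6 was at -0.09 ± 0.04, the dynorphin precursor gene Pdyn at 0.07 ± 0.05 and the channel gene Trpc6 at -0.13 ± 0.10.

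General excitatory and pyramidal neuron genes had a median of -0.09 in females and 0.03 in males over the 9 tested; Rtn4r is listed at 0 in every library. In the mean of both labelled sexes 1 of 9 was above 0, and 0 passed the adjusted threshold. The transcription factor genes Neurod2 and Neurod6 were at -0.09 ± 0.04 (SE, adjusted p = 0.756 by edgeR) and -0.06 ± 0.03. Nrn1 was at -0.07 ± 0.06 and the homeobox gene Emx1 at -0.04 ± 0.05.

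Markers of other cell types, and of other tissue that a dissection of dorsal hippocampus can take along, were also read. The summed level of 8 choroid plexus genes was 27.7 to 1274 CPM in SERTPyramid females and 975 to 1307 CPM in control females, and 466 to 2508 CPM in SERTPyramid males against 1195 to 1844 CPM in control males. Their median log2 fold change was -0.45 in females, with 0 of 8 above 0, and -0.01 in males. SERTPyramid replicate 1 labelled male, which was high in 4 of the markers, had the highest choroid plexus sum of the 12 libraries, whereas control replicate 1 labelled female, high in the same 4, ranked 8th. Ttr, at 1081 CPM on average, made up most of that sum, so these ranks need not hold for the other choroid plexus genes. The subiculum genes, 4 of 5 tested with Dlk1 listed at 0 in every library, had medians of 0.01 in females and -0.12 in males. For 8 GABAergic interneuron genes the medians were 0.04 in females and -0.06 in males. Red blood cell genes had medians of -0.32 in females, with 0 of 5 above 0, and 0.08 in males, and endothelial genes -0.14, with 0 of 6 above 0, and -0.02. Myelinating oligodendrocyte genes had medians of -0.05 in females and 0.29 in males. The medians of the striatal, neocortical layer, astrocyte and microglia genes lay between -0.06 and 0.09 in both labelled sexes. None of the genes on these lists passed the adjusted threshold by edgeR, and their part in the marker values was not tested.

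**Figure D5:**
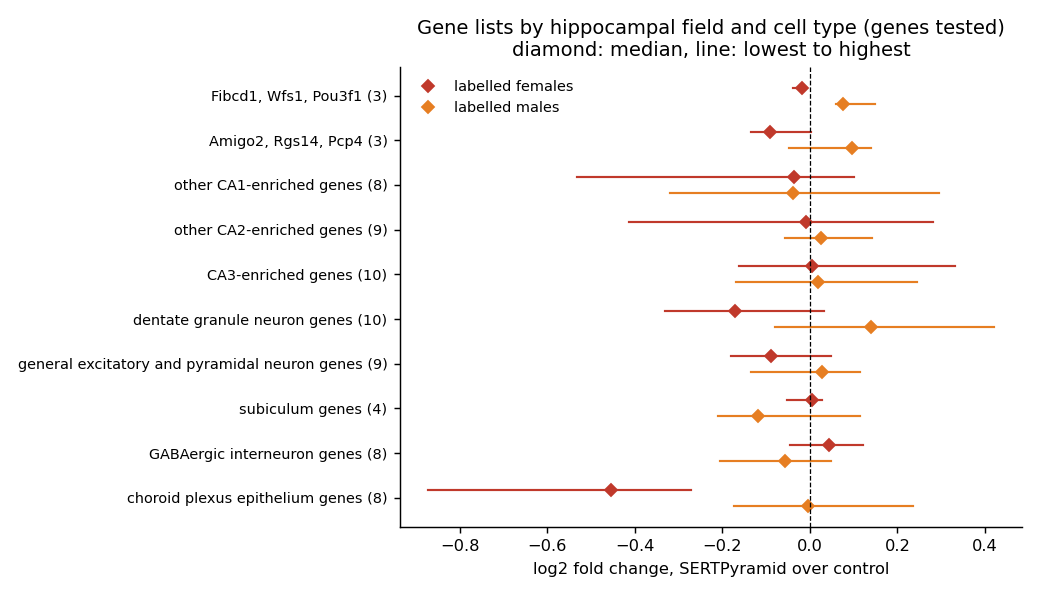
Log2 fold change of SERTPyramid over control by gene list (x axis; diamonds are medians and lines run from the lowest to the highest gene; number of genes tested in brackets), for labelled females and labelled males. The CA1 and CA2 markers and the other CA1, CA2 and CA3 lists have medians between -0.09 and 0.10, and the choroid plexus list is at -0.45 in females.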

How the data were processed

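The authors deposited raw counts of reads per Ensembl gene (52634 genes, 0 columns unmapped), from libraries made of 250 ng total RNA with a TruSeq RNA v2 kit, per the labels' protocols. The build is mm10, per the submitters' processing notes. No aligner, counter or annotation is given in the sources used here. Names, coordinates and lengths came from GENCODE M21 (GRCm38).

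Groups came from the labels. Genes kept by filterByExpr (17631) were TMM-normalized, and edgeR 4.0.16 (R 4.3.3) gave quasi-likelihood F tests with all 12 libraries in 4 groups, adjusted by Benjamini-Hochberg over all genes at 0.05. CPM of single libraries uses library totals. Log2 CPM for correlations had a prior count of 2 and 100000 permutations. A limit of 3 counts for a count of 0 covers counting error only. The fit was tried on simulated data.

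All 6 markers are named, as are up to 4 genes with the smallest mean-difference p in each of 5 neuron lists, and for each marker the 3 most correlated named genes with mean log2 CPM of at least 1. Members and lists were chosen with earlier results of these data known. Alternatives were DESeq2 1.42.0, RLE scaling, keeping all genes, a minimum of 1 CPM in 6 libraries, a replicate block, only the compared groups, leaving out libraries and, added after the data were seen, removal of the G and C trend and another gene length. No libraries of a group agreed within sampling noise (chi-square over degrees of freedom 2.52 to 13.8).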

Additional observations from a re-analysis of the deposited data

How the results depend on the processing

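Across 396 recomputed marker differences, 0 of the 393 with an adjusted p passed 0.05 (lowest 0.474), and DESeq2 gave none for Amigo2, Rgs14 and Pcp4 in females. Of the 396, 364 kept their direction and 32 changed sign, the largest of those being 0.104 in size on the log2 scale. The cause of these changes was not tested. Without the first control library of each labelled sex, Fibcd1 was 0.066 and Wfs1 0.061 in females. With the G and C trend removed, Rgs14 was -0.048 in females, and in the mean of both labelled sexes Fibcd1 was -0.016 and Wfs1 -0.012.

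Leaving out each library in turn, the female difference ran from -0.088 to 0.066 for Fibcd1, -0.089 to 0.061 for Wfs1, -0.097 to 0.056 for Pou3f1, -0.104 to 0.125 for Rgs14 and -0.167 to -0.069 for Pcp4. The male difference ran from -0.018 to 0.129 for Fibcd1, -0.0070 to 0.141 for Wfs1, -0.023 to 0.180 for Rgs14 and -0.106 to 0.0023 for Pcp4. The lowest male values of Fibcd1, Wfs1 and Rgs14 came without SERTPyramid replicate 1. The mean difference ran from -0.016 to 0.063 for Fibcd1, -0.021 to 0.070 for Wfs1, -0.015 to 0.066 for Amigo2, -0.0084 to 0.112 for Rgs14 and -0.118 to -0.058 for Pcp4. The interaction ran from -0.149 to 0.0050 for Fibcd1 -0.203 to 0.028 for Rgs14, -0.314 to -0.152 for Amigo2 and -0.247 to -0.093 for Pou3f1.

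The count of all genes called did depend on the setting. DESeq2 called 1 gene in females and 1 in the interaction. Without the filter, 34328 genes were tested, and the counts were 103 in females, 5 in males, 14 in the interaction and 66 in the mean. With only the groups compared, 415 of 17108 genes tested were called in females. Leaving out each library gave 0 to 144 genes in the mean, with 144 without SERTPyramid replicate 2 labelled male. None of the 6 markers was among them, which at such small shares of all genes does not set the markers apart.

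Whether same-numbered libraries of different groups were paired cannot be told from the data. Of 18 such pairs, 4 had correlated deviations above 0.1 (range -0.403 to 0.300). Differently numbered pairs ranged from -0.357 to 0.323. With the replicate number as a block, 0 genes were called and the mean Pcp4 difference was -0.09.

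On deviations from group means, 6 of the 15 correlations of markers passed the adjusted threshold that had not passed on the values as measured. Without the 2 libraries farthest from the median of the gene named first, a removal that narrows its range, 8 correlations changed sign. They became 0.25 for Fibcd1 with Pou3f1, -0.25 for Fibcd1 with Rgs14, -0.0058 for Fibcd1 with Pcp4, -0.026 for Wfs1 with Amigo2, -0.32 for Wfs1 with Pcp4, 0.24 for Pou3f1 with Rgs14, -0.19 for Amigo2 with Rgs14 and -0.52 for Amigo2 with Pcp4.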
